A study of Mus musculus with 16 samples.

Results

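White adipocytes store triglyceride in a large lipid droplet and release hormones into the blood. In the bowel they lie in the mesenteric fat that joins the colon along its outer wall, and a scattering of them can sit in the submucosa, so a piece of colon can carry more or less fat depending on how it was taken and trimmed. The genes described here are 8 that adipocytes are known for: the secreted proteins Adipoq, Cfd, Retn and Lep, the lipid droplet proteins Plin1 and Cidec, and Fabp4 and Lpl, which handle fatty acids. They were chosen by gene name alone, as the probes whose gene name in the array files is 1 of the 8, and they stand as a measure of fat in the sampled colon. The 8 genes had 11 probes and 20 spots on each array, of 55681 probes in all. After dim probes were left out, 7 of the 8 were among the 24543 genes tested; Lep was not.

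The samples were colorectal tissue of 16 ApcMin/+ mice, in which 1 allele of the tumour suppressor Apc is truncated, taken at day 28, with 1 array per mouse. All groups carried that mutation, and no group without it is part of the comparison. The 4 Sham mice drank water alone. The 6 Control mice drank dextran sulphate sodium (DSS, 1.5% w/v, an agent that injures the colon lining and causes colitis) over 3 days and were given saline, and the 6 5-ASA mice had that DSS course too and were given 5-aminosalicylic acid (5-ASA), a drug that dampens inflammation in ulcerative colitis. The labels conflict on the dosing: the protocol describes saline or 5-ASA given into the colorectum for 28 days, while the sample descriptions have the mice drink 5-ASA, or in Control nothing but water, over the 25 days that followed DSS. Neither sex nor age is given in the labels used here, nor is it said how the tissue was dissected. The labels call the arrays of a group biological replicates.

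Each value is log2 of the spot's processed intensity minus the 75th percentile of its own array, so 0 is a probe as bright as that percentile and a step of 1 is a doubling. Intensity of different probes is not comparable, so values are set side by side within a gene. The 75th percentile ran from 912 to 1134 intensity units over the arrays, 53.0% to 65.2% of non-control spots were well above background, and the mean correlation of an array with the 15 others over all tested genes lay between 0.972 and 0.985. Colon epithelium genes differed little between mice when averaged. The mean deviation of 8 epithelial genes (among them Epcam, Cdh1, Vil1 and Krt20) from their means over all arrays spanned -0.16 to 0.22 over the mice. That measures differences between mice and not the level of epithelium. Of the 2 slides used, each carried 2 Sham, 3 Control and 3 5-ASA mice in 2 rows. The Sham mice were all in row 1, together with Control 1, 2, 4 and 5, and the 5-ASA mice all in row 2, together with Control 3 and 6. The share of spots well above background split by row, 59.8% to 65.2% in row 1 and 53.0% to 57.7% in row 2. The dimmest signal that counted as such lay between -6.02 and -5.24 in row 1 and between -4.82 and -4.32 in row 2. Dim probes were thus harder to detect in row 2. Sham and 5-ASA have no row in common, so a fit with row as a covariate compares them only by way of the Control mice, which lie in both rows.

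The probes define what was read. Adipoq had 1 probe of 60 bases on the forward strand at chr16:23157576-23157635 (mm9, as the array files give it), and the 3 genes with a second probe allow a check of their values; 1 probe of each is shown, 5′ to 3′ and without capitals since no stretch is singled out. The exon or untranslated region each falls in was not analysed here.
Adipoq: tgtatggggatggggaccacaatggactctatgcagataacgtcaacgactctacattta
Cidec, chr6:113378116-113378175, reverse strand: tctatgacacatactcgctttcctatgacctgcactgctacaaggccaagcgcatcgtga
Retn, chr8:3657312-3657371, forward strand: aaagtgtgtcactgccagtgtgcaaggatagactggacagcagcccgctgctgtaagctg
Lpl, chr8:71425050-71425109, forward strand: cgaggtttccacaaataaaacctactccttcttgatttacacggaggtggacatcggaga

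Over the 16 mice the printed Cidec, Retn and Lpl probes followed the brighter probe used for testing with a Pearson r of 0.986, 0.999 and 0.931. None of the 11 probes lay in the outer 12 spot rows of the array.

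Among the secreted proteins, Adipoq (adiponectin, the insulin-sensitising hormone made almost wholly by adipocytes) was at 1.02, 0.65, 1.94 and -6.08 in Sham 1 to 4. In Control it had a lowest value of -2.27, a median of 0.14 and a highest of 0.87, and in 5-ASA a lowest of -6.83, a median of -0.46 and a highest of 1.20. The groups overlapped, and the 2 mice far below the rest were Sham 4 and 5-ASA 6, in which the probe was not well above background; it was in the other 14. The median of the remaining Sham mice was at least 94.1-fold above Sham 4, and that of the remaining 5-ASA mice at least 24.4-fold above 5-ASA 6. These folds, and those marked "at least" further on, are lower bounds against the dimmest signal that counted as well above background on the dim array or the probe's own signal, whichever was higher. For Adipoq that bound was -5.54 on the array of Sham 4 and -4.82 on that of 5-ASA 6. The folds of these 2 mice are therefore not comparable in size.

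Cfd (complement factor D or adipsin, a serine protease of the alternative complement pathway) was well above background on all 16 arrays, so its full span was measured. It stood at 4.60, 4.29, 5.19 and -1.70 in Sham 1 to 4, at 1.17, 3.85 and 4.64 (lowest, median, highest) in Control and at -4.20, 3.41 and 4.26 in 5-ASA. The highest mouse, Sham 3, exceeded the lowest, 5-ASA 6, by 672-fold. Within Sham the span was 118-fold and within 5-ASA 353-fold, against 11.1-fold within Control, and the 3 groups overlapped.

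Retn (resistin, a hormone that adipocytes secrete in mice) repeated this order. Its values were 1.61, 1.82, 2.07 and -3.53 in Sham 1 to 4, -1.63, 0.58 and 1.79 (lowest, median, highest) in Control, and -4.80, 0.58 and 1.34 in 5-ASA. The probe was not well above background in 5-ASA 6, and the median of the other 5-ASA mice was at least 47.2-fold above it. Lep (leptin, the satiety hormone) was different: its probe, spotted 10 times, was well above background on 0 of 16 arrays, with values between -7.63 and -6.43, so Lep gives a bound and no level in any mouse.

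Of the lipid droplet proteins, Plin1 (perilipin 1, which coats the droplet and gates lipolysis) was dim. It was well above background on 12 arrays and not in Sham 4, Control 6, 5-ASA 2 and 5-ASA 6. Its values were -1.995, -2.52, -1.42 and -7.83 in Sham 1 to 4, -5.87, -2.86 and -2.18 (lowest, median, highest) in Control, and -7.10, -3.61 and -2.17 in 5-ASA. The median of the measured Sham mice was at least 11.7-fold above Sham 4, and that of the measured 5-ASA mice at least 3.05-fold above 5-ASA 6.

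Cidec (also called Fsp27, which drives the growth of the large droplet) was measured in every mouse with a smaller span, 11.4-fold in all. It was at 2.14, 0.75, 1.45 and -1.07 in Sham 1 to 4, at -0.04, 1.37 and 2.04 (lowest, median, highest) in Control and at -1.37, 0.10 and 1.36 in 5-ASA. Sham 4 and 5-ASA 6 were again the lowest mice of their groups, and Control 6 of its own, while 5-ASA 2 and 4 were also below 0.

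Fabp4 (the fatty acid carrier of adipocytes, also made by capillary endothelium and macrophages) and Lpl (lipoprotein lipase, which frees fatty acids from circulating lipoproteins and is also made by muscle and macrophages) spread least. Fabp4 was at 3.28, 2.86, 3.78 and 2.09 in Sham 1 to 4, at 2.11, 3.07 and 3.30 (lowest, median, highest) in Control and at 1.74, 2.40 and 3.52 in 5-ASA, a span of 4.11-fold. Lpl was at 1.29, 0.89, 1.24 and 0.24 in Sham 1 to 4, at -0.47, 0.96 and 1.31 in Control and at 0.56, 0.95 and 1.31 in 5-ASA, a span of 3.45-fold. The lowest Lpl mouse was Control 4, not Sham 4 or 5-ASA 6.

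**Figure D1:**
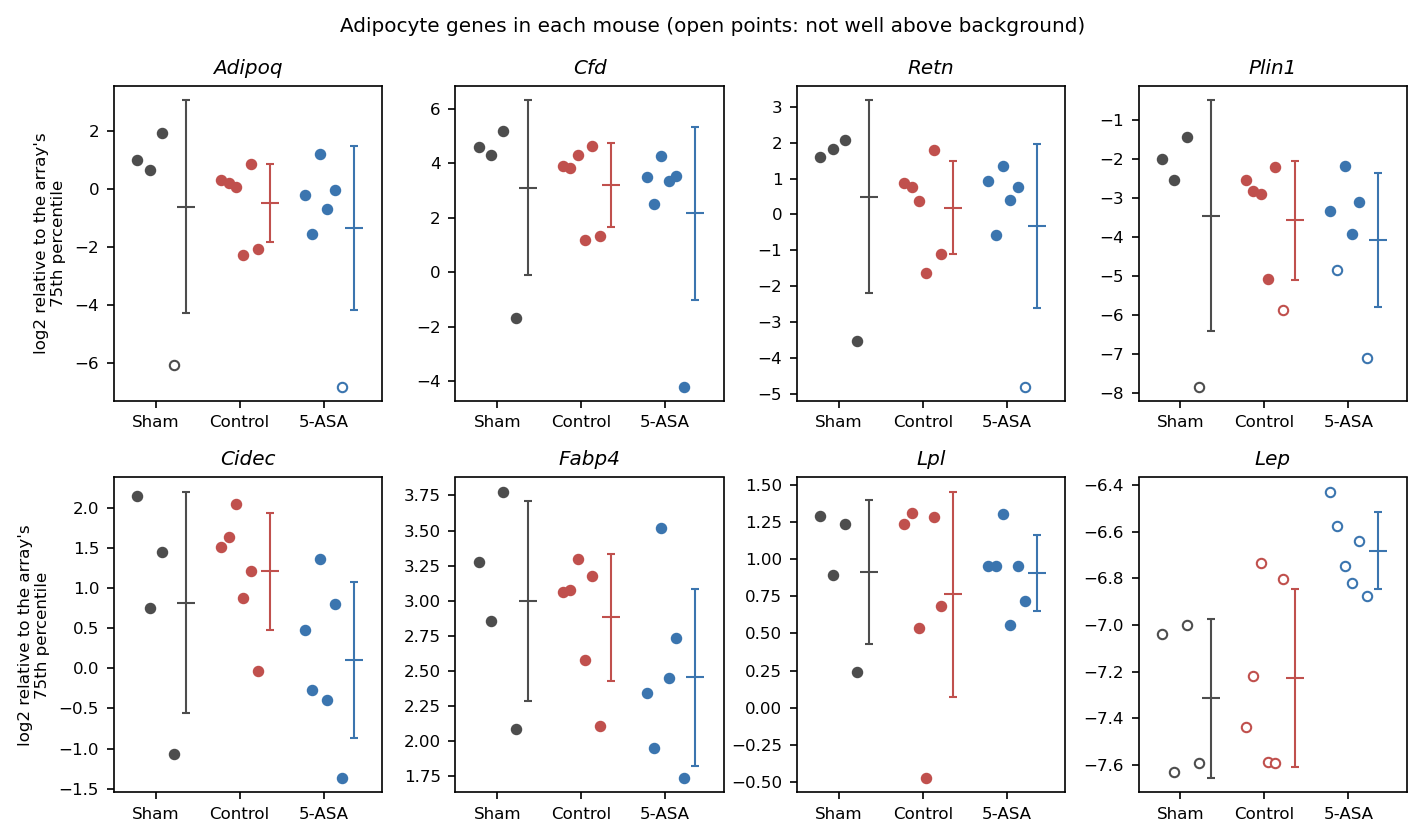
Each panel plots 1 gene as log2 over the array's 75th percentile (vertical axis, scaled per panel) in each mouse of Sham (n = 4), Control (n = 6) and 5-ASA (n = 6), with the group mean and SD beside the points and open points for probes not well above background. For Adipoq, Sham 4 at -6.08 and 5-ASA 6 at -6.83 lie far below the other mice, and Lep is open in all 16.

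In bulk tissue, fewer adipocytes and less of a transcript in each adipocyte cannot be told apart, and this holds for every value above. The mean of the 7 tested genes, each taken as its deviation from its mean over all arrays, was -3.49 in 5-ASA 6 and -2.92 in Sham 4, then -1.08 in Control 6, -1.06 in Control 4 and -0.62 in 5-ASA 2, and was highest in Sham 3 at 1.66. Sham 4 and 5-ASA 6 did not stand apart on the arrays as a whole. Their 75th percentiles were 1062 and 993 intensity units, and their mean correlations with the other arrays were 0.981 and 0.982, ranks 7 and 13 of 16 from the lowest. Their diarrhea score was 0.5 in both, a score that 8 of the other mice also had. Control 6 and Control 4, next in order, each scored 1.0, while Control 3, with the highest score of 1.5, had a mean of 0.73. The relation of these genes to the score was not tested.

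The spread between mice was large beside that of other genes. Within groups the SD was 2.67 for Cfd and 2.63 for Adipoq, which ranked 4 and 6 from the highest of 24543 genes, 2.08 for Retn (rank 50), 2.01 for Plin1 (rank 60) and 1.00 for Cidec (rank 928). The median over all genes was 0.256, the 90th percentile 0.689 and the 99th 1.51, so 4 of the 7 tested genes lay above the 99th percentile and 5 above the 90th. Fabp4 at 0.59 (rank 3403) and Lpl at 0.51 (rank 4482) lay below the 90th. Without Sham 4 and 5-ASA 6 the SD fell to 1.12 for Cfd, 1.13 for Adipoq, 0.980 for Retn, 1.21 for Plin1 and 0.724 for Cidec. Then 0 of the 7 were above the 99th percentile (1.53) and 5 above the 90th (0.706), so the extreme ranks rest on that pair of mice and the raised spread of the 5 genes does not.

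**Figure D2:**
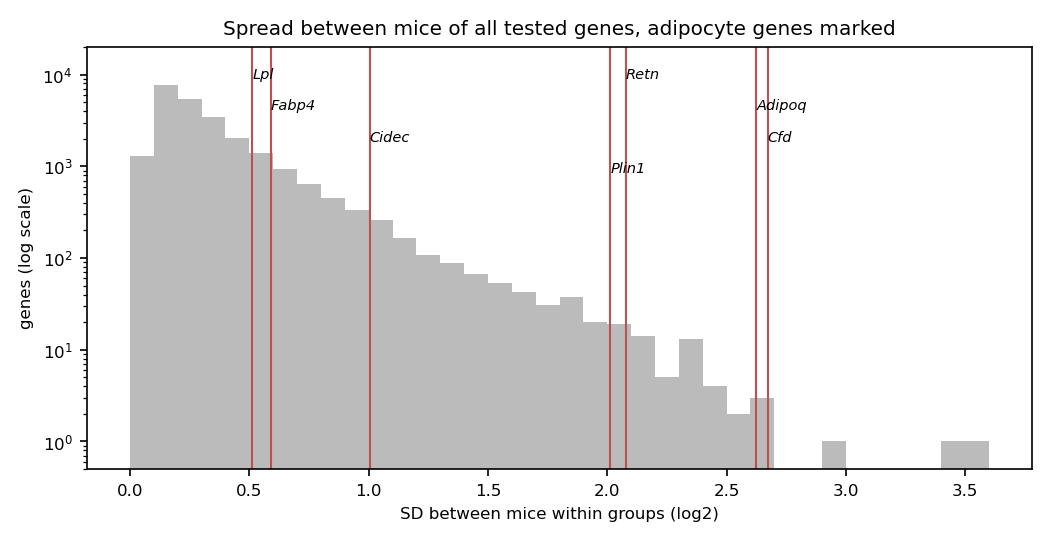
The histogram counts the 24543 tested genes (vertical axis, log scale) by the SD between mice within groups (horizontal axis, log2), and vertical lines mark the 7 tested adipocyte genes. Lpl and Fabp4 lie near 0.5, Cidec at 1.00, Plin1 and Retn near 2, and Adipoq and Cfd at 2.63 and 2.67.

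The first comparison asks what remained of the DSS course at day 28, as Control against Sham. None of the 7 tested adipocyte genes was called by limma (adjusted p from 0.871 to 0.993), against 0.057% of all genes, or 14, and 0 of the 7 had groups that did not overlap, against 3.32%. At an unadjusted limma p under 0.05 the count was 0 of the 7 against 8.87%. Of those 14 genes 13 lay in the outer 12 spot rows, and 0 genes were called without those rows. Adipoq differed by 0.13 (Control minus Sham, 95% interval -3.23 to 3.503), Cfd by 0.10 (-3.33 to 3.53), Retn by -0.31 (-2.98 to 2.36), Plin1 by -0.12 (-2.70 to 2.46) and Cidec by 0.39 (-0.90 to 1.68). For Fabp4 the difference was -0.12 (-0.88 to 0.65) and for Lpl -0.15 (-0.82 to 0.51). The intervals for the first 4 genes leave room for changes of over 2 log2 units either way. The median of the 7 was -0.12, beside -0.002 over all genes, with 4 lower and 3 higher in Control.

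With Sham 4 and 5-ASA 6 left out, Control minus Sham was -1.69 (SE 0.74) for Adipoq, -1.50 (SE 0.73) for Cfd, -1.65 (SE 0.64) for Retn and -1.58 (SE 0.79) for Plin1. All 7 genes were then lower in Control, with 0 called (limma adjusted p 0.796 for each of these 4). Adipoq, Cfd and Cidec changed sign, and the 3 remaining Sham mice were all above the Control median for Adipoq. Sham 4 and 5-ASA 6 were chosen after these values were seen, for being the lowest. Control 4 and Control 6, at -2.27 and -2.08 for Adipoq, stayed in. The move toward lower values in Control follows in part from that choice, so no conclusion is drawn from it.

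The second comparison asks what 5-ASA changed in mice that had DSS. Here 6 of the 7 genes were lower in 5-ASA and 1 was higher, with a median difference of -0.51 (5-ASA minus Control) beside -0.002 over all genes, and again 0 of 7 was called (limma adjusted p 0.999 for each) against 0% of all genes. At an unadjusted limma p under 0.05, 0 of the 7 passed, beside 1003 genes or 4.09%. Groups failed to overlap for 0 of the 7 and for 0.134% of all genes. Cidec had the largest difference, -1.11 (SE 0.54, 95% interval -2.26 to 0.05). It was 0.10 ± 0.97 in 5-ASA and 1.21 ± 0.73 in Control (SD, n = 6 each), and the exact two-sided permutation p was 0.0498, or 0.981 adjusted over the 21 gene and comparison pairs tested. Cfd differed by -1.04 (-4.10 to 2.03), Adipoq by -0.87 (-3.88 to 2.14), Retn by -0.51 (-2.89 to 1.88), Plin1 by -0.51 (-2.82 to 1.80), Fabp4 by -0.43 (-1.11 to 0.26) and Lpl by 0.14 (-0.45 to 0.74). Leaving out 5-ASA 6 turned Adipoq to 0.22, Cfd to 0.24, Retn to 0.39 and Plin1 to 0.10, while Cidec stayed at -0.81 and Fabp4 at -0.28.

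In the third comparison, 5-ASA against Sham, all 7 genes were lower in 5-ASA with a median difference of -0.72 beside -0.003 over all genes. Of the 7, 0 were called (limma adjusted p from 0.628 to 0.999), against 0.057% or 14 of all genes, 12 of them in the outer spot rows and 0 called without those rows; 0 of the 7 did not overlap, against 1.8%, and 0 had an unadjusted limma p under 0.05, against 11%. Cfd differed by -0.94 (95% interval -4.37 to 2.49), Retn by -0.82 (-3.48 to 1.85), Adipoq by -0.74 (-4.11 to 2.63), Cidec by -0.72 (-2.01 to 0.57), Plin1 by -0.63 (-3.21 to 1.96) and Fabp4 by -0.54 (-1.31 to 0.22). Lpl differed by -0.0080 (-0.67 to 0.66). The Sham mice are also those of the first comparison and the 5-ASA mice those of the second, so the values of the 3 comparisons are not independent of each other. With row as a covariate Adipoq was 0.052, Plin1 0.61 and Lpl 0.22, all higher in 5-ASA, and the median of the 7 was -0.0080, with 0 called. Leaving out Sham 4 alone or 5-ASA 6 alone moved Adipoq to -2.56 or 0.36. Over the 3 comparisons the exact permutation p of each gene was 0.981 after adjustment over the 21 pairs, where the smallest raw p possible is 0.0095 for 4 against 6 mice and 0.0022 for 6 against 6.

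**Figure D3:**
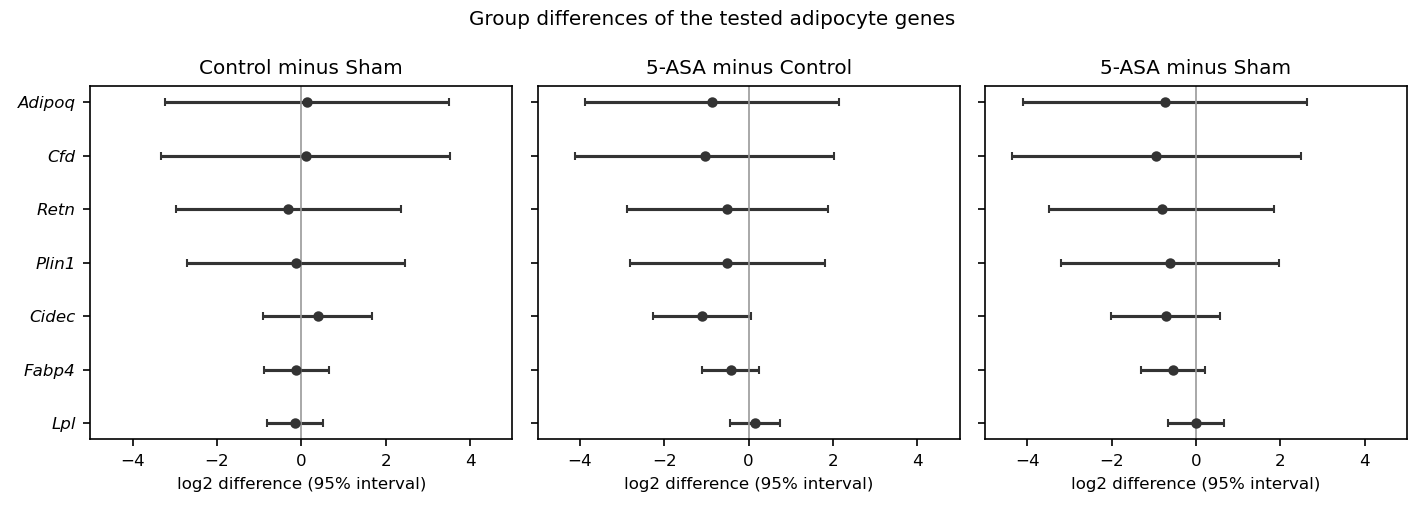
Points are the fitted log2 differences of the 7 tested genes in the 3 comparisons (horizontal axis), with 95% intervals from the limma model. Every interval crosses 0; those of Adipoq, Cfd, Retn and Plin1 are the widest, and Cidec in 5-ASA minus Control comes nearest to leaving 0, at -2.26 to 0.05.

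Position on the slides was set beside these values. The 4 mice lowest in Adipoq (5-ASA 6, Sham 4, Control 4 and Control 6) were all on slide 2, which also held the highest, Sham 3. Adipoq averaged -1.90 on slide 2 and 0.21 on slide 1, a difference of -2.11 (exact two-sided permutation p = 0.092, 0.113 adjusted over the 7 genes, 8 mice each). For Cfd the same difference was -2.23, for Plin1 -1.67, for Retn -1.65 and for Cidec -1.02 (exact permutation p = 0.053 for Cidec), and 0 of the 7 passed after adjustment. Each slide held the groups in equal numbers, so slide does not enter the group differences, but within a slide they differed: Control minus Sham for Adipoq was -0.64 within slide 1, which holds none of the 4 lowest mice, and 0.91 within slide 2. Between the rows Adipoq differed by -0.85 (row 2 minus row 1, exact permutation p = 0.50). Within row 1 Control minus Sham was 0.40 for Adipoq and 0.49 for Cidec, with Plin1 turning from lower to higher at 0.29. Within row 2 5-ASA minus Control was -0.35 for Adipoq and -0.90 for Cidec, but 0.32 for Plin1 and 0.031 for Retn, so 4 of the 7 were lower there rather than 6. In that row 6 mice against 2 cannot give an exact p below 0.071.

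The adipocyte genes varied together from mouse to mouse. Adipoq and Cfd had a Pearson r of 0.985 and a Spearman rho of 0.944 over the 16 mice, Adipoq and Retn 0.985 and 0.929, and Adipoq and Plin1 0.966 and 0.991. Each of these 6 values had a permutation p of 2.3e-05 to 2.6e-05 after adjustment over the 21 pairs of genes, the smallest that 100000 permutations could give here. The median r over the 21 pairs was 0.820 and the range 0.419 to 0.985; 19 pairs passed an adjusted permutation p of 0.05 by r and 21 by rho, with Fabp4 and Lpl (r = 0.484) and Cidec and Lpl (r = 0.419) the 2 that missed by r.

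Most of these correlations did not rest on the far mice. Without the 2 mice farthest from the median of the first gene of each pair (Sham 4 and 5-ASA 6 for most pairs), r was 0.967 for Adipoq and Cfd, 0.960 for Adipoq and Retn and 0.981 for Adipoq and Plin1, and it ranged from 0.324 to 0.981 over the pairs, 18 of which still passed. For Fabp4 with Cfd, Retn and Lpl the mice left out were Sham 3 and 5-ASA 6, so Sham 4 stayed in. Fabp4 with Cfd and with Retn are among the 18. Cidec lost most, to 0.641 against Adipoq and to 0.487 against Retn. On deviations from the group means r ran from 0.547 to 0.989, within row 1 from 0.599 to 0.998, within row 2 from 0.218 to 0.991, within slide 1 from 0.113 to 0.981 and within slide 2 from 0.296 to 0.993. In each of these the low end was a pair with Lpl: Lpl followed Adipoq with r = 0.580 over all mice and 0.361 within row 2. With quantile scaling in place of the 75th percentile the range was 0.432 to 0.988.

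**Figure D4:**
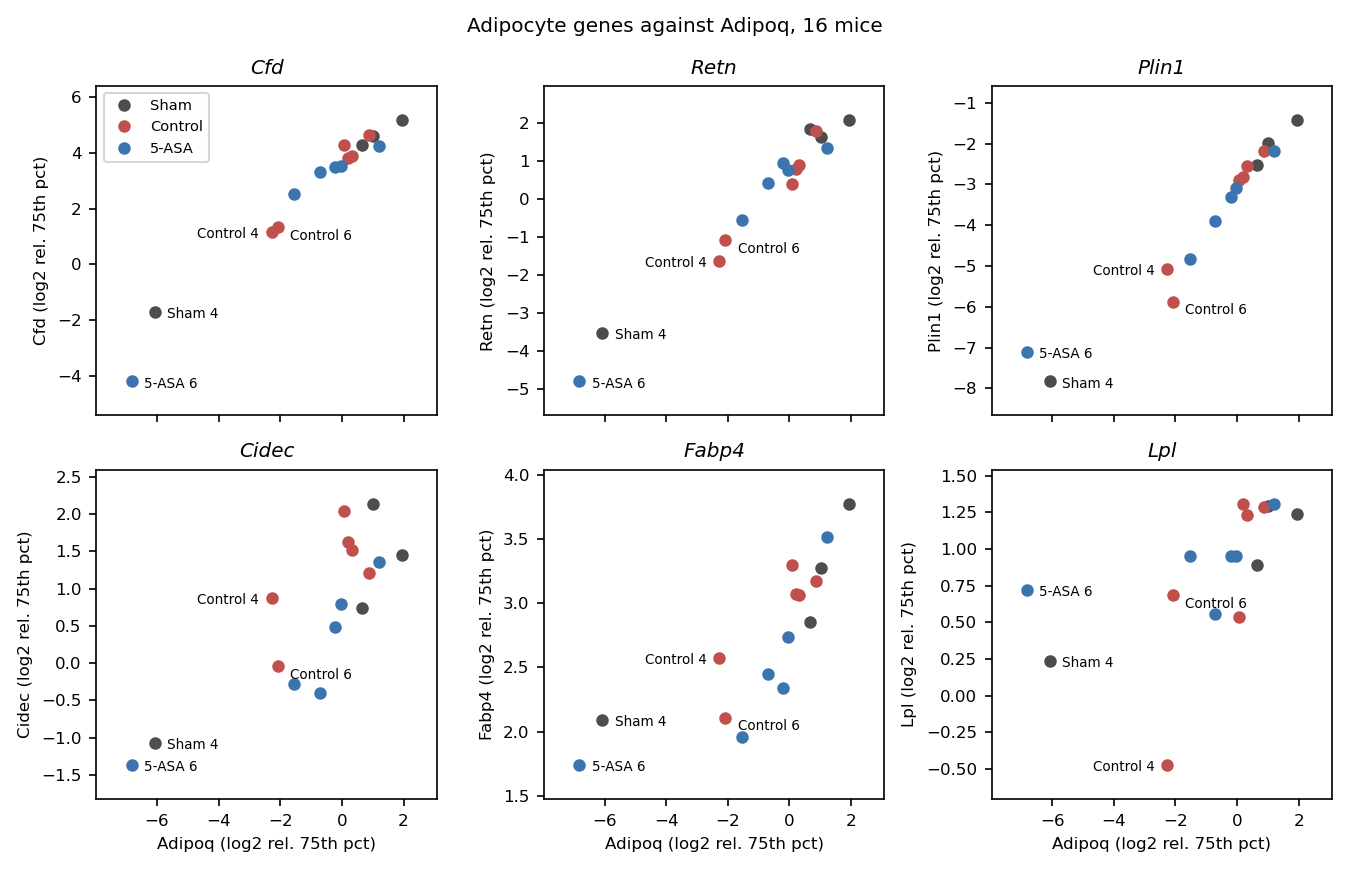
Each panel sets 1 gene against Adipoq in the 16 mice, both as log2 over the array's 75th percentile, coloured by group, with the 4 mice lowest in Adipoq named. Cfd, Retn and Plin1 follow a line through all groups (r = 0.985, 0.985 and 0.966), and Lpl scatters (r = 0.580).

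Genes outside the 8 were ranked by their Pearson r over the 16 mice with the mean of the 7 tested genes. Of 24466 genes compared, 4 had an r above 0.9 and 19 above 0.8. The 10 highest with a gene name were Car3 (0.996), Cyp2e1 (0.986), Mrap (0.928), Slc7a10 (0.923), Adig (0.886), Thrsp (0.886), Cntfr (0.858), Rps6kl1 (0.857), Serpinb3c (0.817) and Ndel1 (0.817). Car3, a carbonic anhydrase abundant in muscle and fat, was at -3.46 in Sham 4 and -4.15 in 5-ASA 6, with a highest mouse at 2.95. Cyp2e1, a cytochrome P450, was at -4.30 and -5.43 in the same mice with a highest at 1.89. Slc7a10, an amino acid transporter used as a marker of white adipocytes, and Adig, adipogenin, kept r = 0.962 and 0.948 without those 2 mice, whereas Serpinb3c fell to 0.607 and Rps6kl1 to 0.656. Slc7a10 was dim: Control 4 and Control 6, at -7.17 and -6.03, lay below the dimmest signal well above background on their arrays (-6.02 and -4.77). Its r thus rests in part on values that were not measured. None of the 10 was called in a group comparison; Thrsp, which promotes lipid synthesis, came closest, at -0.72 in Control minus Sham (limma adjusted p 0.698).

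The wider fat cell program and the other cell types that a colon sample can hold were followed in 17 lists of 152 genes, of which 133 outside the 8 were tested. Of those 133, 0 were called in any comparison (smallest limma adjusted p 0.561 for Control minus Sham, 0.999 for 5-ASA minus Control and 0.339 for 5-ASA minus Sham). Not being called does not show that a gene was unchanged. The 8 B cell genes, for example, were all lower in 5-ASA than in Sham, with a median difference of -2.06. The other fat cell secreted genes followed Adipoq weakly over the 16 mice. The mean of their list had r = 0.26 with Adipoq, 0.29 without Sham 4 and 5-ASA 6, 0.64 within row 1 and -0.12 within row 2. Of 6 tested, 0 had an r above 0.8 with Adipoq (range -0.24 to 0.31): Nrg4, a neuregulin, had r = 0.26, Sfrp5, a Wnt inhibitor, 0.31, Rbp4, the retinol carrier, -0.01, and Itih5, 0.02. Their median difference was 0.01 in Control minus Sham and -0.00 in 5-ASA minus Control.

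Droplet and lipolysis genes are those that coat the stored fat or break it down. Among 10 droplet and storage genes, Plin4, a perilipin of adipocytes, had an r with Adipoq of 0.53 over all mice and 0.79 without Sham 4 and 5-ASA 6. Plin2, the perilipin that most cell types carry, had -0.03, Plin5, that of oxidative tissue, 0.18 and Cidea, the relative of Cidec in brown fat, 0.30. The droplet genes had a median difference of -0.00 in Control minus Sham and -0.09 in 5-ASA minus Control, with Plin5 at 0.62 (SE 0.28) and Plin4 at -0.35 (SE 0.40) in the former. For the lipases the r with Adipoq was 0.36 for Lipe (hormone-sensitive lipase), 0.39 for Pnpla2 (adipose triglyceride lipase), 0.34 for Mgll (monoglyceride lipase) and 0.55 for Abhd5 (the activator of Pnpla2). Without Sham 4 and 5-ASA 6 these became -0.05, 0.34, 0.23 and -0.10, while Adrb3, the beta-3 adrenergic receptor, went from 0.50 to 0.83 and G0s2, an inhibitor of Pnpla2, from 0.50 to 0.78. All 10 lipolysis genes were lower in 5-ASA 6 than the 5-ASA median, and 7 of 10 in Sham 4 than the Sham median, by small amounts: the list mean deviated by -0.29 and -0.07.

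In fatty acid synthesis 1 of 10 genes passed r = 0.8, Thrsp at 0.86. Fasn, fatty acid synthase, had -0.03, Scd1, the stearoyl-CoA desaturase, 0.59, Acaca, which makes malonyl-CoA, 0.14, and Acly, ATP citrate lyase, -0.17. The transcription factors that drive adipocyte formation, Pparg and Cebpa, had r = 0.01 and -0.00, and Cebpb and Cebpd 0.10 and -0.17. Without Sham 4 and 5-ASA 6 they were at -0.12, 0.45, -0.25 and -0.18. Over the 10 factors r ran from -0.27 to 0.54 in all mice, highest for Ebf2, which was well above background on only 5 arrays. Without those mice Ebf2 was at 0.84, Zfp423 at 0.64 and Klf15 at 0.31, and Ebf1, Stat5a and Rxra were at 0.07, -0.10 and -0.14. Pparg was 3.29 ± 0.48 in Sham, 3.53 ± 0.23 in Control and 3.17 ± 0.21 in 5-ASA (SD, n = 4, 6 and 6), and is also expressed by colon epithelium. The 10 factors had a median difference of -0.10 in Control minus Sham and -0.12 in 5-ASA minus Control.

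Partners of lipoprotein lipase and receptors of the hormones are the last lists of fat cell genes, and none of their members was called. Gpihbp1, which anchors Lpl to capillaries, differed by -0.41 (SE 0.19) in 5-ASA minus Control, Lmf1, which Lpl needs to fold, by 0.07 (SE 0.09), and the Lpl inhibitors Angptl4 and Angptl8 by 0.02 (SE 0.31) and 0.07 (SE 0.19). The adiponectin receptors Adipor1 and Adipor2 differed by 0.07 (SE 0.08) and 0.04 (SE 0.10), Cdh13, which binds adiponectin, by 0.21 (SE 0.20), and the leptin receptor Lepr by 0.05 (SE 0.27). The 8 partners had a median difference of 0.19 in Control minus Sham and -0.15 in 5-ASA minus Control, and the 7 receptors -0.13 and 0.07.

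The other cell types were measured by their own lists. Each list's level in a mouse is the mean over its tested genes of the deviation from the gene's mean over all arrays. Brown fat was at -0.11 in Sham 4 and -0.29 in 5-ASA 6, with group ranges of -0.11 to 0.31 in Sham, -0.54 to 0.36 in Control and -0.34 to 0.58 in 5-ASA; Ucp1, its defining uncoupling protein, and Elovl3 were too dim to be tested, while Cox8b had r = 0.71 with Adipoq, Cidea 0.30, Dio2 0.16 and Cox7a1 -0.01. Fat cell precursors ranged from -0.25 to 0.15 in Sham, -0.18 to 0.22 in Control and -0.32 to 0.24 in 5-ASA, with Pdgfra at r = 0.14, Dpp4 at -0.21, Pi16 at 0.17 and Dlk1 at -0.16.

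Mesothelium, the cell layer that covers the outer surface of the bowel and its mesentery, had the highest Pearson r with Adipoq of the cell type lists over the 16 mice. By rho brown fat was higher (0.576 against 0.556), and without Sham 4 and 5-ASA 6 the r of smooth muscle (0.525) and of brown fat (0.469) exceeded that of mesothelium (0.443). The 7 tested mesothelial genes were lowest of all mice in Sham 4 (-1.14) and highest in Sham 3 (1.21), and were at -0.58 in 5-ASA 6. Low levels were not confined to Sham 4 and 5-ASA 6: Control 2 was at -1.0003 with Adipoq at 0.20, and 5-ASA 2 at -0.61 with Adipoq at -1.54. All 7 were lower in Sham 4 than the Sham median, and 5 of 7 in 5-ASA 6 than the 5-ASA median. The list had r = 0.592 and rho = 0.556 with Adipoq over the 16 mice (permutation p = 0.0134, 0.147 adjusted over the 11 cell type lists), 0.704 within row 1 and 0.391 within row 2. Wt1, a mesothelial transcription factor, had r = 0.66, Upk3b 0.49, Msln 0.39 and Upk1b 0.38. Mesothelial levels spanned -1.14 to 1.21 in Sham, -1.0003 to 1.16 in Control and -0.61 to 0.69 in 5-ASA; their part in the adipocyte values was not tested.

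The other 10 lists likewise missed an adjusted permutation p of 0.05, with r from -0.274 for macrophages to 0.463 for brown fat. Smooth muscle, the main tissue of the bowel wall, was at 0.22 in Sham 4 with 0 of 8 genes below the Sham median, and at -0.0048 in 5-ASA 6 with 8 of 8 below the 5-ASA median. Its r with Adipoq was 0.176 over all mice and 0.525 without those 2. It was lowest in Control 6 at -1.17, a mouse also low in the adipocyte genes, and at -0.87 in Control 4, which was also below every Sham mouse; Myh11, Acta2, Des and Cnn1 had r of 0.12 to 0.22 with Adipoq. Macrophages, which also make Lpl and Fabp4, were at 0.04 in Sham 4, where 7 of 9 genes were below the group median, and at 0.27 in 5-ASA 6, where 0 of 9 were, with ranges of -0.40 to 0.53 in Sham, -0.24 to 0.67 in Control and -0.61 to 0.30 in 5-ASA. For Adgre1, Cd68, Csf1r and Mrc1 r was -0.11, -0.30, -0.13 and 0.00. Capillary endothelium kept within -0.33 and 0.20 in all mice, and its Pecam1, Cdh5, Kdr and Tek had r of -0.14, 0.06, 0.39 and -0.17.

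B cell genes, which mark lymphoid follicles in the piece taken, spread as widely between mice as the adipocyte genes but in another order. Their list was at 2.30 in Sham 4 and -0.37 in 5-ASA 6, between -2.16 and 2.99 in Sham, -1.72 and 2.99 in Control and -1.64 and -0.37 in 5-ASA, with r = -0.231 against Adipoq; the within-group SD was 2.58 for Ms4a1, 1.35 for Cd79a and 1.48 for Cd79b. Skeletal muscle genes were at 0.73 in Sham 4, the highest of all mice, and -0.20 in 5-ASA 6, with r = 0.28 for Ckm, 0.36 for Acta1, -0.02 for Tnnt3 and -0.33 for Tnni2. Exocrine pancreas genes had Pnlip, Cpa1 and Prss2 too dim to test, and were at -0.18 and -0.77 in the 2 mice; Amy2a5 had r = 0.77 but was well above background on 8 arrays, and Cela1, Cel and Ctrb1 had -0.02, 0.36 and 0.36.

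**Figure D5:**
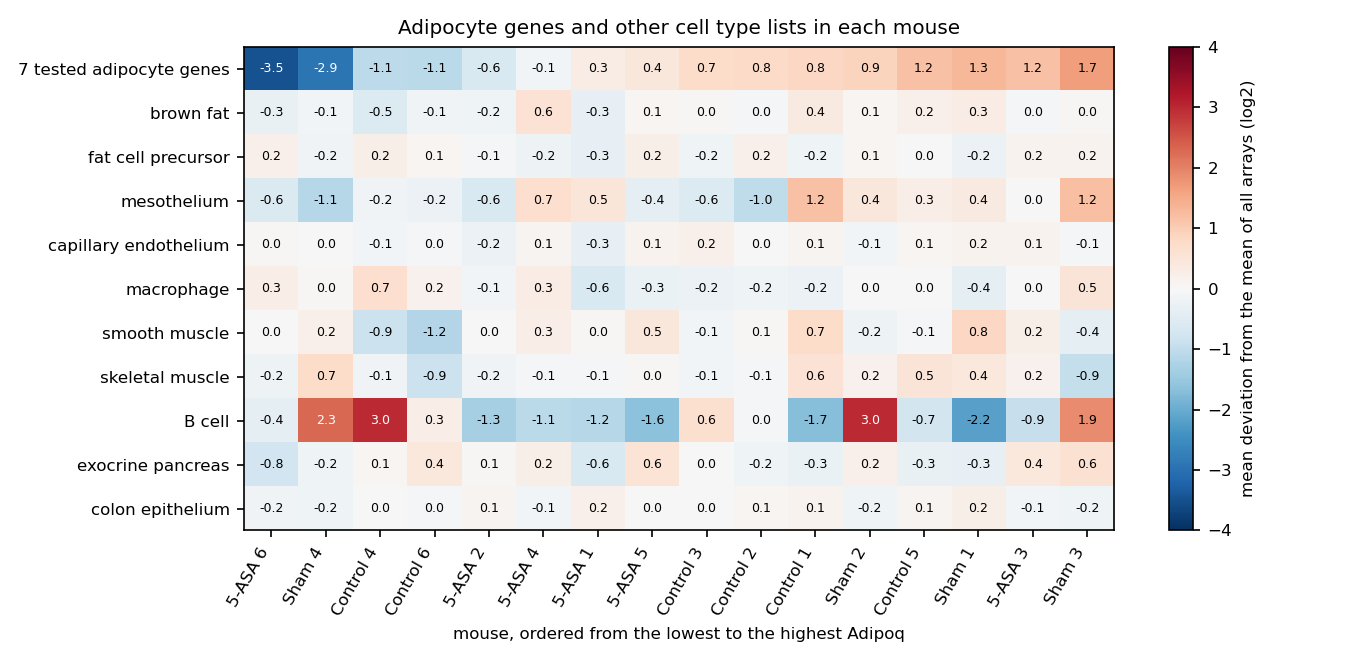
Mice are ordered from the lowest to the highest Adipoq (left to right), rows are the mean of the 7 tested adipocyte genes and of 10 other cell type lists, and the number and colour give the mean log2 deviation from the mean of all arrays. The top row runs from -3.49 in 5-ASA 6 to 1.66 in Sham 3, mesothelium is lowest in Sham 4, and B cell genes vary as widely in another order.

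The sequence before each gene's start was examined because Adipoq, Cfd, Retn, Plin1 and Cidec varied together, and C/EBP factors and PPARG are the known drivers of adipocyte genes. RefSeq (GRCm38.p6) held 7 promoters for 6 of the 8 genes, 2 of them for Cidec; Fabp4 and Lpl had none in the table. In the 250 bases before the start, both strands were searched for TTGCNNAA (C/EBP), DR1 (AGGTCA repeated with 1 base between, the element that PPARG binds with RXR), TCACNCCAC (SREBP), TATAAA and CACGTG. The C/EBP letters were in 3 of the 7: Plin1, 187 and 58 bases before the start, 1 of the Cidec starts, 198 bases before it, and Lep, 55 bases before it, where the match reads on both strands. Of all 32851 promoters 9.56% held it. The other motifs matched 0 of the 7, beside 0.033%, 1.05%, 12.4% and 6.02% of all promoters in that order. Plin1 and Lep are printed for their matches (in capitals) and Adipoq for comparison, as the gene that anchors the correlations and held none; each is read on the gene's own strand.
Plin1, chr7:79732777-79733026, reverse strand: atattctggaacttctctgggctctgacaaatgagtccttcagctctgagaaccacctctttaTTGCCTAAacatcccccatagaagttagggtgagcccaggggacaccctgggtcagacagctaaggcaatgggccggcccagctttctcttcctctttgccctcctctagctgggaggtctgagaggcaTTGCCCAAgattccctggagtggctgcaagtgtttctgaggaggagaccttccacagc
Lep, chr6:29059971-29060220, forward strand: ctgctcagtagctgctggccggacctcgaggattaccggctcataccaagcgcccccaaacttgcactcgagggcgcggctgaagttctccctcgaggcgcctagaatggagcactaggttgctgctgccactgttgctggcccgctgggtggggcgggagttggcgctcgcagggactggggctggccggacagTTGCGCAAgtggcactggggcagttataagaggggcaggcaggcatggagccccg
Adipoq, chr16:23146286-23146535, forward strand: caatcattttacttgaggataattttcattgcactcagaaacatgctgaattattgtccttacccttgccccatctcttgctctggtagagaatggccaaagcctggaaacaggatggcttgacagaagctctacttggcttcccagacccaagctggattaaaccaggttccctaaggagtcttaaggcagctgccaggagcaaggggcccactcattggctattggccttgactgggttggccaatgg
A match is a description of the letters, not of binding, and these windows leave out enhancers.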

How the data were processed

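RNA from the colorectal tissue of 16 mice was extracted with Trizol and 0.2 ug was labelled with Cy3, per the labels' protocols. The authors' scanner files hold processed intensity, background-subtracted by Agilent Feature Extraction 10.10.1.1, per the file headers, along with raw mean and background intensity and flags for signal well above background. The deposited value table is on a log2 scale, which was inferred from its match to the scanner values. With both centred per probe on the mean of all 16 arrays, r was 0.990 to 0.997 per array. Its column medians run from -0.188 to 0.223, and it served as an alternative. The authors state neither its direction nor its centring. The absolute Sham median of a probe in it was at most 5.0e-07, so its values are centred on the Sham median. Arrays have no read depth, so precision is set by how many mice there were.

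The 75th percentile of an array was subtracted from its log2 processed intensities, control and outlying spots left out and spots of a probe averaged. Of 55681 probes, 27656 were named through RefSeq (GRCm38.p6) by accession and 28025 by the name in the files; 35087 passed a minimum of 4 arrays (of 16) with signal well above background, and the brightest kept probe stood for its gene (24543 genes). Groups were compared with limma 3.58.1 (R 4.3.3) in 1 model of the 3 groups, with Benjamini-Hochberg adjustment over all genes and calls at 0.05. Single genes were also compared by exact two-sided permutation and correlations by 100000 permutations (SciPy 1.17.1). The fit was tested on simulated data. Named genes are the 8, the first 4 tested of each list, and the 10 most like the 8; a few others were chosen after their values were seen. The members, lists and tests were chosen with earlier results of these data known. The alternatives were background correction, scaling, filters, probe choice, edge spots, slide, row, replicate number, samples in the fit and leaving out mice.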

Additional observations from a re-analysis of the deposited data

Results flagged for a closer look

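In 6 of the 21 sets of values (7 tested genes in 3 groups) the lowest mouse stood far from the others by Dixon's test at the 95% level. For normally spread values chance gives about 1 in 20. The share of all tested genes that pass the same limit was not worked out. Whether 6 of 21 is unusual on these arrays is therefore not known. In Sham the mouse was Sham 4 each time, at -6.08 for Adipoq, -1.70 for Cfd and -3.53 for Retn, on the log2 scale over the array's 75th percentile. In 5-ASA the mouse was 5-ASA 6 each time, at -6.83 for Adipoq, -4.20 for Cfd and -4.80 for Retn. Adipoq was not well above background in either mouse, nor Retn in 5-ASA 6, so those values are bounds. With each such value set to the dimmest signal that counted as above background on its array, or kept where it was higher, 4 of the 6 sets still passed; Adipoq did not, with a gap of 0.828 of the range in Sham (limit 0.829) and 0.544 in 5-ASA (limit 0.625). Since the 3 genes follow each other from mouse to mouse, these 6 sets amount to 2 mice rather than 6 separate events. Mesothelial genes were also low in both mice (-1.14 and -0.58), but not in these alone. They were at -1.0003 in Control 2, where Adipoq was 0.20, and at -0.61 in 5-ASA 2. The part of mesothelium was not tested.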

How the results depend on the processing

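None of the 7 tested adipocyte genes was called in any of the 3 comparisons under any setting run. Lep entered only the fit with no filter on dim probes, and its result there was not examined. Leaving out Sham 4 and 5-ASA 6 together was chosen after seeing the data. The number of mice and the dim signal of Adipoq, Plin1 and Retn in the lowest mice limit all values. The cause of the changes below was not tested, except that settings with fewer spots, genes or mice test less. The 14 genes called in Control minus Sham became 1 with probes above background on all 16 arrays, 0 without the outer 12 spot rows, 4 within slide 1, 1 within slide 2, 1 within row 1, 7 with the 2 groups alone and 9 without Sham 4 and 5-ASA 6. The 0 called in 5-ASA minus Control became 2952 with no filter on dim probes, 1 within slide 2 and 7 with row as a covariate. Of those 2952, 2888 are among the 10404 genes too dim for the filter, whose median difference was 0.65 against -0.0016 for the genes tested, and all 5-ASA but only 2 of 6 Control arrays are in row 2. Within row 2 that median was 0.067, and between the Control arrays of row 2 and row 1 it was 0.94. The 14 in 5-ASA minus Sham became 3 with all 16 arrays, 0 without the outer rows, 2 and 4 within slides 1 and 2, 7 with row as a covariate and 9 without the 2 mice.

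Directions turned as follows, with 0 of them called before or after. In Control minus Sham, Adipoq was -0.33 with normexp, -0.64 within slide 1 and -1.69 without the 2 mice; Cfd -0.44 within slide 1 and -1.50 without the 2 mice; Cidec -0.24 without the 2 mice; Fabp4 0.077 within slide 1; Plin1 0.25 within slide 2 and 0.29 with row as a covariate or within row 1; and Retn 0.42 within slide 2. In 5-ASA minus Control, Plin1 was 0.32 and Retn 0.031 with row as a covariate and within row 2, and without the 2 mice Adipoq was 0.22, Plin1 0.10, Cfd 0.24 and Retn 0.39. In 5-ASA minus Sham, Lpl was 0.015 with normexp, 0.00071 in the authors' table, 0.0059 within slide 2 and 0.22 with row as a covariate, where Adipoq was 0.052 and Plin1 0.61. Of 109, 109 and 102 values under these settings, 96, 101 and 96 kept the direction.

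Leaving out 1 mouse at a time gave 10 to 15, 0 to 0 and 11 to 26 genes called (26 without 5-ASA 4), 0 adipocyte genes called throughout, and medians of the 7 from -1.50 to 0.55, -0.97 to 0.18 and -2.09 to 0.029. For Control minus Sham the ranges were -1.69 to 0.99 for Adipoq, -1.50 to 0.80 for Cfd, -0.24 to 0.83 for Cidec, -0.42 to 0.14 for Fabp4, -0.38 to 0.095 for Lpl, -1.58 to 0.55 for Plin1 and -1.65 to 0.22 for Retn. For 5-ASA minus Control they were -1.38 to 0.22 for Adipoq, -1.46 to 0.24 for Cfd, -0.10 to 0.25 for Lpl, -0.97 to 0.10 for Plin1 and -0.87 to 0.39 for Retn, and for 5-ASA minus Sham -2.56 to 0.36, -2.53 to 0.33, -0.23 to 0.12, -2.09 to 0.046 and -2.16 to 0.080.

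Of the same-numbered pairs of mice, 2 of 4, 3 of 6 and 3 of 4 had a correlation of deviations above 0.1. In 1, 2 and 2 of these pairs the first mouse correlated best with its own number. No expectation from differently numbered pairs was worked out, so these counts cannot decide whether replicate numbers pair the mice. With the replicate block 10, 0 and 11 genes were called and 0 adipocyte genes; the median of the 7 was 0.25, -0.51 and -0.26, and Plin1 turned to 0.25 and Retn to 0.075 in Control minus Sham.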
